A study of Mus musculus with 18 samples.

Results

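Harringtonine and cycloheximide halt ribosomes at different points of translation, and the 2 kinds of footprint library were compared here gene by gene in mouse erythroblasts with and without tunicamycin. The genes compared were all those with at least 1 listed harringtonine position and a row of coding sequence (CDS) footprints: 4538 genes, of 20683 with a CDS row and 4613 with a harringtonine position. The question was for which of them tunicamycin changed the number of harringtonine reads relative to CDS footprints. Of the 4538 genes, 3516 held enough reads to be tested, 876 had too few harringtonine reads, 105 had too few CDS footprints and 41 too few of both.

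Erythroblasts, the precursors of red cells, came from fetal livers of Trp53 -/- mice of the cross FVB/n x C57BL/6 and were expanded in StemPro medium, to which erythropoietin, dexamethasone and stem cell factor had been added. The cells of every group therefore lacked p53 by label. Treated cells received tunicamycin at 2.5 µg/ml for 1.5 h and the others were untreated. Translation was then stopped with cycloheximide at 100 µg/ml for 5 min or with harringtonine at 2 µg/ml, for a time not given in the sources used here. Each of the 4 groups held 3 libraries. The labels do not say whether these came from separate cultures or animals, so a p-value reflects no more than how these libraries varied, which may be technical variation.

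Harringtonine binds ribosomes as they begin elongation, so that they collect at start codons while those further along run off. Its reads are taken to mark sites of initiation. Cycloheximide freezes ribosomes where they stand, and its footprints over a CDS follow the number of ribosomes translating it. Tunicamycin blocks N-linked glycosylation, which strains protein folding in the endoplasmic reticulum (ER), and the ER kinase PERK then phosphorylates the initiation factor eIF2. Phosphorylated eIF2 lowers initiation on most mRNAs, while some mRNAs with upstream open reading frames (uORFs) in their leader, Atf4 above all, are then read more.

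What a harringtonine position marks was checked against RefSeq sequence of build GRCm38.p6. The available sequence reaches from 250 bases before to 50 after each gene start, and 485 positions of 403 genes lay in its last stretch with at least 20 bases to read. An ATG began 12 or 13 bases downstream of 133 of these 485 positions (27.4%). The same 2 distances from arbitrary points in the same stretch of 32544 promoters held an ATG in 2.53%. The letters searched were ATG on the gene's own strand only, and a match is a description of these letters. The sequences of 3 genes with a position at that distance show it, with the ATG in capitals and the first base being the harringtonine position.
Eif3f (subunit of initiation factor eIF3), chr7:108934420-108934435, plus strand: tttctcggcaagATGg
Icam4 (red-cell adhesion protein), chr9:21029441-21029456, plus strand: cgggctttgtgccATG
Ndufab1 (acyl carrier protein of mitochondria), chr7:122101820-122101835, minus strand: ggttggcgtagccATG
In the 485 sequences, ATG was not spread evenly over the other distances. It began 0, 1, 3, 4, 6, 7, 9 or 10 bases downstream in 2.27% to 5.57% of positions each, and 2, 5, 8 or 11 bases downstream in 0% to 1.03%. The histone H3 gene Hist1h3d, whose positions lie too close to the end of the available sequence to be among the 485, is shown because its values are described below. Its 2 adjacent positions lie 7 and 6 bases before an ATG.
Hist1h3d (histone H3), chr13:23575795-23575810, plus strand: tcttatcATGgctcgt
Hist1h3d (histone H3), chr13:23575796-23575811, plus strand: cttatcATGgctcgta

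**Figure D1:**
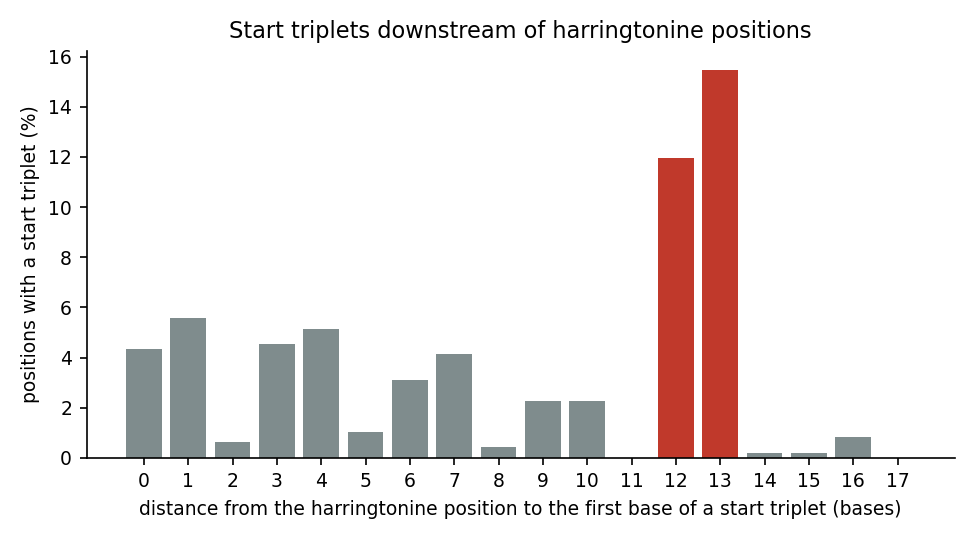
Share of harringtonine positions (percent of 485, vertical axis) with a start triplet beginning at each distance downstream (bases, horizontal axis). Red bars mark 12 and 13 bases, where 58 and 75 positions had one, more than at any other distance shown.

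The 8900 positions of the compared genes were those that the authors kept. In 2232 genes there was 1 position, and the tested genes had up to 20. All positions of a gene were summed, also those far inside it, such as a Top2a position 30371 bases past the gene start, introns included. Most positions were not checked for a start codon, so the summed reads need not all mark initiation. Of all 9025 positions, 6828 had at least 20 reads in both treatments, 1597 only with tunicamycin and 600 only without, summed over the 3 libraries of a treatment. A position kept through 1 treatment alone had to be higher there, so the reads of such positions are no evidence of a change. The harringtonine tables held 446561 to 523868 reads per untreated library and 558625 to 648169 per tunicamycin library. The CDS rows held 6415127 to 6652042 footprints per untreated library and 4531945 to 5086129 per tunicamycin library. Harringtonine libraries of one treatment correlated across genes at 0.858 to 0.931 (Spearman's rho) and CDS libraries at 0.990 to 0.995. Libraries of different treatments correlated at 0.864 to 0.939 for harringtonine and 0.980 to 0.993 for CDS, so harringtonine libraries did not group by treatment. The biological coefficient of variation, edgeR's measure of spread between replicates beyond counting, was 25.1% for harringtonine reads and 9.38% for CDS footprints. The fit of the ratio used 1 spread per gene for both assays, with a coefficient of 15.2%, below that of harringtonine reads. Its standard errors, intervals and p-values may therefore be too small, above all for genes with few harringtonine reads. An alternative fit with a spread for each assay is given with the other settings below.

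The cells carried erythroblast markers. Together 13 erythroid markers summed to 13945 to 14847 CPM (counts scaled by library size) of CDS footprints per library, and none was at 0. Macrophage markers summed to at most 2.16 CPM, neutrophil and monocyte markers to 0.312, endothelial and stromal markers to 1.76 and hepatocyte markers to 7.50, with Alb, Mpo and Adgre1 at 0. Megakaryocyte markers, mainly Gp5 and Gp1ba, reached 210 to 312 CPM and mast cell markers, mainly Ms4a2 and Hdc, 178 to 315 CPM. Trp53 itself held 277, 223 and 291 CDS footprints in untreated and 239, 232 and 296 in tunicamycin libraries, and 84 to 132 harringtonine reads per library. Counts per gene do not show which stretch of Trp53 was read, so they do not check the knockout.

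The ratio of harringtonine reads to CDS footprints changed under tunicamycin for 2 of the 3516 genes, 1 in each direction (0.0284% higher and 0.0284% lower; edgeR quasi-likelihood test, Benjamini-Hochberg adjusted p under 0.05). Atf4, the transcription factor of the eIF2 stress response, fell, and Hist1h4k, a histone H4 gene, rose. At an unadjusted p under 0.05 there were 129 higher genes (3.67%) and 130 lower (3.7%). Each assay was scaled on its own, so a change is relative to the other genes of that assay, and a shift of initiation against elongation shared by all mRNAs cannot be seen in these values. The labels state no pairing, and the main fit had no block. In an alternative fit the numbers of the cycloheximide libraries were taken as pairs across treatments from these data. With that number as a replicate block 1 gene passed, Med24 (a Mediator subunit, named after its values were seen), and neither Atf4 nor Hist1h4k. DESeq2 called 14 genes, 7 in each direction, among them both of these and Hist1h3d, Hist1h2bn, Xbp1, Pnrc2, Rpl41, Psma7, Eif4b and Rpl6, which are described below and did not pass in edgeR.

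Across the 3516 genes the median change of the ratio was -0.01 on the log2 scale, and 5% of genes lay below -0.70 and 5% above 0.66. The spread of the change was 0.42 (SD over genes) for the ratio, 0.36 for harringtonine reads and 0.25 for CDS footprints. The median standard error of a gene's change was 0.32. A tested gene had a median of 36.3 harringtonine reads and 522 CDS footprints per library. Genes with under 20 harringtonine reads per library (964 genes) had a median standard error of 0.41, those with 20 to 50 (1119) 0.32, those with 50 to 200 (1060) 0.27 and those with over 200 (373) 0.26. Both passing genes were among the last. A change past 1 on the log2 scale was fitted for 97 genes, of which the 2 passed.

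**Figure D2:**
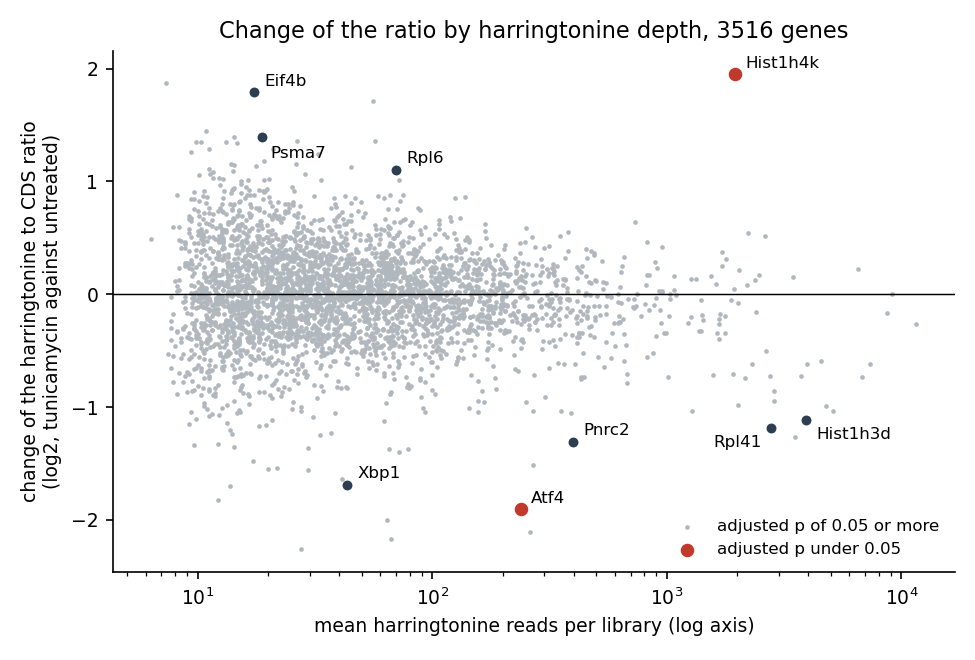
Change of the harringtonine to CDS ratio (log2, tunicamycin against untreated, vertical axis) of each of the 3516 genes against its mean harringtonine reads per library (log axis). Red points passed (Hist1h4k at 1.95 and Atf4 at -1.91), dark points are named genes that did not, and the cloud is wider at low reads.

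Taken alone, the harringtonine reads changed for 1 of 3681 genes (0.0272% higher, and 0% lower; edgeR, adjusted p under 0.05), and that gene was Hist1h4k. No gene passed as lower, with 74 higher and 59 lower at an unadjusted p under 0.05, and DESeq2 and limma voom called 0 lower as well. CDS footprints rose for 165 of 9265 genes (1.78%) and fell for 74 (0.799%), 239 in all, and with the replicate block 885 passed. Of the 3516 genes of the ratio, 117 rose and 32 fell in CDS footprints. The difference between the assays in the number of calls was not tested, and the spread between harringtonine libraries was larger.

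Atf4 had its CDS footprints rise while its harringtonine reads showed no change past their spread. CDS footprints were 490, 482 and 515 in the untreated libraries and 1406, 1577 and 2013 in the tunicamycin libraries. Scaled to library size, these were 106 ± 3.73 CPM and 473 ± 71.8 CPM (SD, n = 3 each), and the groups did not overlap. The CDS change was 2.18 ± 0.11 (log2, SE), or 4.53-fold, with an edgeR adjusted p of 2.33e-08. Harringtonine reads were 171, 245 and 160 untreated and 275, 265 and 315 with tunicamycin, or 491 ± 162 and 582 ± 65.2 CPM (SD, n = 3 each), and 1 untreated library lay above all 3 treated ones on the CPM scale. Their change was 0.23 ± 0.26 (log2, SE; edgeR adjusted p = 0.998). The ratio fell by 1.91 ± 0.28 on the log2 scale (95% interval -2.50 to -1.31; edgeR adjusted p = 0.0156). With the replicate block the change was -1.90, with an edgeR adjusted p of 0.0501.

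The Atf4 gene spans chr15:80255184-80257545 on the plus strand of GRCm38.p6, and its harringtonine reads came from 3 positions. Position 80255668, which lies 484 bases past the gene start with any intron included, held 108, 178 and 111 reads untreated and 163, 181 and 202 with tunicamycin. Its neighbour 80255669 held 32, 58 and 29 against 45, 67 and 102. Position 80256234 held 31, 9 and 20 against 67, 17 and 11, and in CPM its treated libraries spanned the untreated ones. Whether each lies at a uORF or at the main start codon was not read here, since the sequence used ends 50 bases past a gene start. In the cycloheximide libraries the leader of Atf4 held 43.7% of its leader plus CDS footprints without tunicamycin (1153 against 1487 over 3 libraries) and 22.8% with it (1474 against 4996). The Atf4 ratio to leader plus CDS footprints was -1.37, with an edgeR adjusted p of 0.0970, a smaller change that did not pass. Leaving out the tunicamycin harringtonine library t2 also ended the call (edgeR adjusted p = 0.0549), as did leaving out any 1 cycloheximide library other than the first tunicamycin one (edgeR adjusted p 0.0646 to 0.0910), with the change between -2.04 and -1.61 without any 1 of the 12 libraries.

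Hist1h4k differed the other way, with more harringtonine reads and CDS footprints that showed no change past their spread. Its reads were 876, 494 and 584 untreated and 3138, 2010 and 4615 with tunicamycin, every treated library above every untreated one. In CPM this was 1617 ± 352 against 6615 ± 2660 (SD, n = 3 each), a change of 2.02 ± 0.28 (log2, SE; edgeR adjusted p = 0.0159). CDS footprints were 1665, 1354 and 1619 untreated and 1146, 1152 and 1404 with tunicamycin, or 331 ± 33.3 and 351 ± 26.5 CPM (SD, n = 3 each), and overlapped on the CPM scale. The ratio rose by 1.95 ± 0.34 on the log2 scale (95% interval 1.23 to 2.66; edgeR adjusted p = 0.0475), and with the replicate block its edgeR adjusted p was 0.0963.

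All harringtonine reads of Hist1h4k came from position 21750253 on the minus strand of chromosome 13. RefSeq places the gene, there called H4c12, at chr13:21750145-21750553, so the position lies 300 bases past the gene start and 108 before its end, in a span of 409 bases. It is therefore in the last part of the gene, and whether an initiation codon lies there was not read here. The 9 other H4 genes tested had ratio changes of -0.86 to -0.01, none with that sign, and harringtonine changes of 0.05 to 0.54. Hist1h4m, an H4 gene, had no CDS footprint and therefore no ratio. It held 16, 21 and 32 harringtonine reads untreated and 43, 44 and 182 with tunicamycin. These reads are not scaled to library size, and the tunicamycin libraries were deeper, so they do not show that the groups separate. Hist1h4m was named after its values were seen. Histone H4 genes are near-identical copies, so how the authors' counting divided reads between them makes each one's value uncertain. The call was lost under 18 of 32 alternatives, among them any 1 cycloheximide library left out, the untreated harringtonine library u2 (edgeR adjusted p = 0.163) or u3 (0.133) left out, and library scaling by relative log expression (0.0502). Without the tunicamycin library t3, which held the most reads, the change was 1.56 (edgeR adjusted p = 0.0359).

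**Figure D3:**
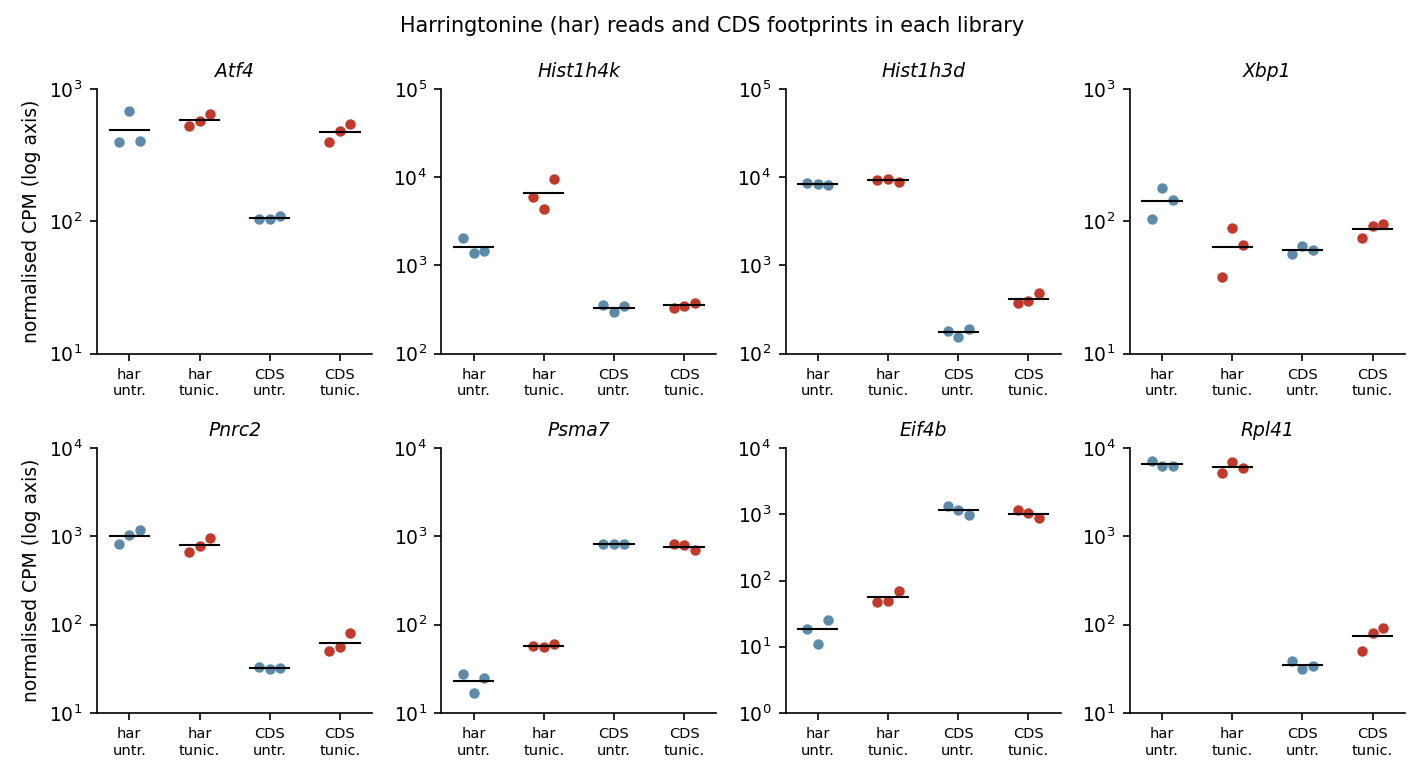
Normalised CPM (log axis) of harringtonine reads (har) and CDS footprints in each library for 8 named genes; points are libraries (3 per group), lines are means, blue is untreated and red tunicamycin. Atf4 separates in the CDS columns (106 against 473 CPM) and Hist1h4k in the harringtonine columns (1617 against 6615 CPM).

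Among genes with a lower ratio, Hist1h3d and Xbp1 had the smallest p after Atf4, and neither passed. Hist1h3d had 3758, 3051 and 3223 harringtonine reads untreated and 4884, 4360 and 4315 with tunicamycin, or 8394 ± 297 and 9207 ± 259 CPM (SD, n = 3 each). Its CDS footprints went from 175 ± 19.0 to 416 ± 58.0 CPM (SD, n = 3 each; CDS change 1.28, edgeR adjusted p = 2.62e-05), and its ratio change was -1.12 ± 0.22 (log2, SE; edgeR adjusted p = 0.0952). The CDS groups lay far apart, and the harringtonine groups, though they did not overlap in CPM, differed by 1.09-fold.

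Xbp1, the transcription factor made from an mRNA that the ER sensor IRE1 splices, had 45, 64 and 58 harringtonine reads untreated and 20, 41 and 32 with tunicamycin. Its CDS footprints were 60.6 ± 4.01 and 88.0 ± 11.1 CPM (SD, n = 3 each), a rise of 0.56 (log2, edgeR adjusted p = 0.0184), and its harringtonine change was -1.16 (edgeR adjusted p = 0.998). The ratio change was -1.69 ± 0.33 (log2, SE; edgeR adjusted p = 0.0952). Its 2 positions, 5524850 and 5524851 on chromosome 11, lie 4209 and 4210 bases past the gene start and 1143 and 1142 before its end, with introns included, in a gene of 5353 bases. They are therefore in the last part of the gene, and whether an initiation codon lies there was not read here.

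Pnrc2, a cofactor of mRNA decay whose leader carries uORFs, had 84.6% of its leader plus CDS footprints in the leader without tunicamycin and 81.2% with it. Harringtonine reads were 358, 378 and 478 untreated and 352, 360 and 468 with tunicamycin, or 1023 ± 187 and 805 ± 152 CPM (SD, n = 3 each). Their change was -0.36 ± 0.24 (log2, SE; edgeR adjusted p = 0.998). CDS footprints were 32.0 ± 0.67 and 62.3 ± 16.5 CPM (SD, n = 3 each; change 0.99, edgeR adjusted p = 0.00472). The ratio change was -1.31 ± 0.29 (log2, SE; edgeR adjusted p = 0.151).

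On the higher side, Psma7 and Eif4b had the smallest p after Hist1h4k and did not pass. All 4 of their positions had under 20 reads over the untreated libraries and were listed through the tunicamycin libraries alone, so the direction of both genes was set in part by that selection. Psma7, a subunit of the proteasome core, had 12, 6 and 10 harringtonine reads untreated and 30, 26 and 29 with tunicamycin, and 819 ± 5.42 and 768 ± 59.6 CPM of CDS footprints (SD, n = 3 each). The ratio change was 1.39 ± 0.29 (log2, SE; edgeR adjusted p = 0.130). For the harringtonine reads of Psma7 alone the change was 1.28 ± 0.36 (log2, SE), with a larger error than that of the ratio. Eif4b, which helps the helicase eIF4A, had 8, 4 and 10 reads against 25, 23 and 34, and a ratio change of 1.79 ± 0.38 (log2, SE; edgeR adjusted p = 0.142). Its harringtonine reads lay at 2 adjacent positions, and its CDS footprints were 1171 ± 180 and 1023 ± 143 CPM (SD, n = 3 each). With positions kept in both treatments only, neither gene had a position left to give a value. Rpl6, a protein of the large ribosomal subunit, had 48, 34 and 54 reads against 97, 95 and 94 and a ratio change of 1.10 ± 0.25 (log2, SE; edgeR adjusted p = 0.152).

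Of 32 listed symbols, some of them older names of one gene, of mRNAs with uORFs that are read differently when eIF2 is phosphorylated, 15 were among the genes compared and 14 were tested. Atf4 passed as lower, none passed as higher, and 13 had a value below 0, against 1794 below and 1722 above 0 among all genes tested. The median ratio change of the list was -0.33, with -0.01 for harringtonine reads and 0.20 for CDS footprints. At an unadjusted p under 0.05 there were 3 lower (Atf4, Pnrc2 and Azin1) and 0 higher. CDS footprints rose for 4 of the 14, which were Atf4, Pnrc2, Ifrd1 and Eif5, against 117 of all 3516 genes. Ifrd1, a transcriptional coregulator with a uORF, had 6, 6 and 16 harringtonine reads against 6, 16 and 17, too few to bound its ratio change of -0.72 closely (95% interval -1.77 to 0.33; edgeR adjusted p = 0.774). Eif5, the factor that triggers GTP hydrolysis on eIF2, had 206, 178 and 182 reads against 253, 250 and 293 and a ratio change of -0.21 (95% interval -0.67 to 0.25; edgeR adjusted p = 0.862).

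Gadd45g, a stress-induced growth regulator, had a ratio change of -0.70 (95% interval -1.42 to 0.01; edgeR adjusted p = 0.678), and Azin1, the inhibitor of antizyme, one of -0.49 (-0.97 to -0.02; 0.641). Ppp1r15b, the constitutive targeting subunit of the eIF2 phosphatase, had 14, 8 and 12 reads against 24, 9 and 9 and a ratio change of -0.03 (95% interval -0.85 to 0.79; edgeR adjusted p = 0.998). Ddit3, Ppp1r15a and Slc35a4, which also belong to this response, had no harringtonine position and were not compared. Ibtk held 2, 2 and 1 harringtonine reads against 9, 4 and 8 at 1 position, and Chac1, a target of ATF4, 4, 0 and 4 against 11, 5 and 10, both under the filter. The single position of each reached 20 reads with tunicamycin only, so it was listed because it was higher there.

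**Figure D4:**
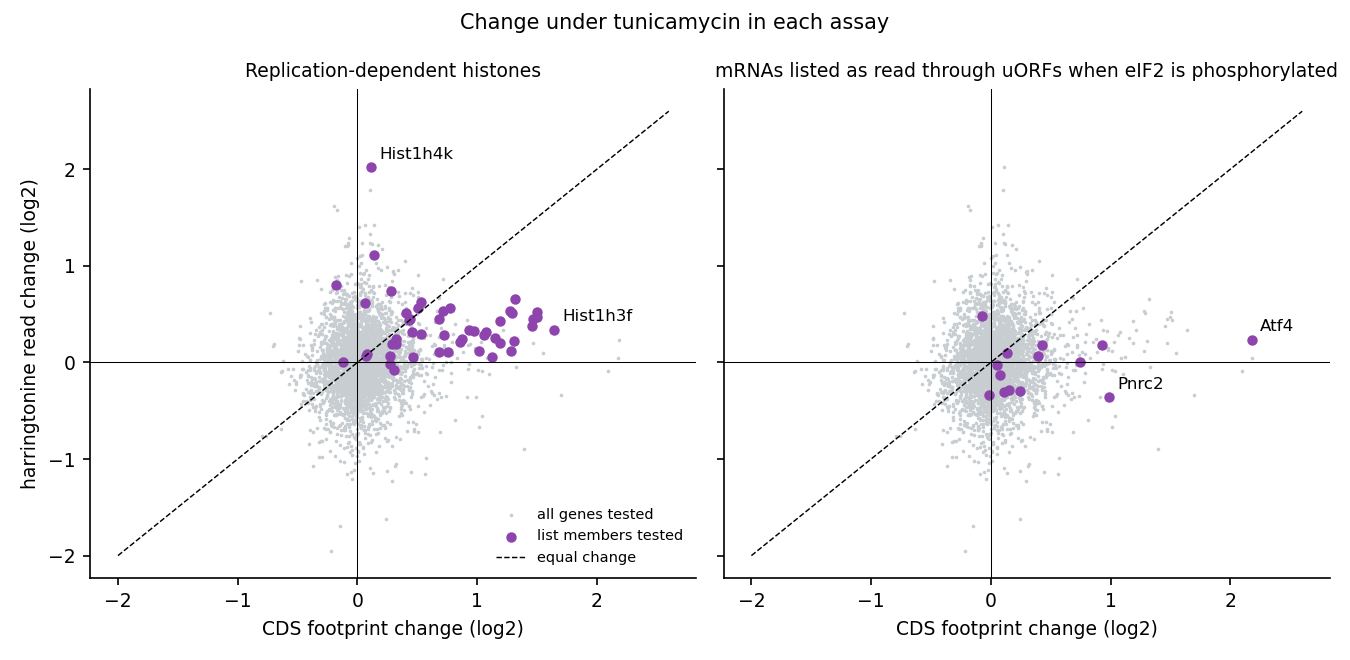
Change of harringtonine reads (vertical axis) against change of CDS footprints (horizontal axis), both log2, tunicamycin against untreated. Purple points are tested histone genes (left, 49) and uORF mRNAs (right, 14), grey points all 3516 genes and the dashed line equal change, under which most purple points lie (36 and 13 had a ratio change below 0).

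Replication-dependent histone genes, whose mRNAs end in a stem-loop in place of a poly(A) tail and are made in S phase, took the largest share of the harringtonine reads of any list, 126650 to 186344 CPM per library over the list. Of 67 listed, 56 were compared and 49 tested. Hist1h4k passed as higher and none as lower. At an unadjusted p under 0.05 there were 14 lower and 1 higher, and 36 of the 49 were below 0, against 130 lower, 129 higher and 1794 below 0 among all 3516 genes. The median change was -0.37 for the ratio, 0.31 for harringtonine reads and 0.71 for CDS footprints. Harringtonine values were above 0 for 47 of the 49, and CDS values for 47, of which 30 passed as higher and 0 as lower. Among all 3516 genes, 1711 harringtonine values and 1997 CDS values were above 0, and 117 genes passed as higher and 32 as lower in CDS footprints. Their summed CDS footprints ranged from 11254 to 27227 CPM over the 6 libraries.

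Hist1h3f, an H3 gene, had 3050, 1948 and 3287 harringtonine reads against 4147, 4118 and 4626, and CDS footprints of 266 ± 76.5 and 815 ± 216 CPM (SD, n = 3 each; CDS change 1.64, edgeR adjusted p = 0.000197). Its ratio change was -1.26 ± 0.32 (log2, SE; edgeR adjusted p = 0.252). The leader of Hist1h3f held 3476 footprints untreated and 8303 with tunicamycin, near its CDS counts of 3732 and 8657 over 3 libraries each. That of Hist1h3d held 1793 and 4023, against 2450 and 4406 in its CDS. Why leader and CDS counts lay so close was not tested. Hist1h2bn, an H2B gene, had a ratio change of -1.05 ± 0.25 (log2, SE; edgeR adjusted p = 0.201) with 801 ± 85.8 and 939 ± 107 CPM of harringtonine reads (SD, n = 3 each). The CDS groups of Hist1h3f did not overlap and its harringtonine groups did, on the CPM scale. The 6 tested variants with polyadenylated mRNAs, such as the H2A variant H2afx, had a median ratio change of -0.18, and 0 of them passed and 0 had an unadjusted p under 0.05 (edgeR). Histone copies are near-identical, and how reads were divided between them was not tested.

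Ribosomal protein genes were deeply read, those of the large subunit summing to 37679 to 62966 CPM of harringtonine reads per library, and none passed in the ratio (edgeR). The large subunit had 26 of 48 genes tested, with a median of -0.07, and 1 higher and 3 lower at an unadjusted p under 0.05. The small subunit had 21 of 34 tested, with a median of 0.13, and 2 higher and 3 lower. Many ribosomal protein genes have processed pseudogenes, and whether these shared reads was not tested. Rpl41, the shortest ribosomal protein, had 3077, 2299 and 2482 harringtonine reads against 2749, 3228 and 2911. Its CDS footprints were 184, 145 and 160 against 175, 264 and 338, a rise of 1.10 (log2; edgeR adjusted p = 0.00472), and its ratio change was -1.19 ± 0.29 (log2, SE; edgeR adjusted p = 0.207). Among 18 tested elongation factors and other mRNAs with a terminal oligopyrimidine start, the median was 0.01. Eef2, the translocation factor, had a ratio change of -0.05 (95% interval -0.85 to 0.75), and Pabpc1, the poly(A)-binding protein, one of 0.07 (-0.87 to 1.02) with harringtonine and CDS changes of -0.76 and -0.79. Of 36 initiation factors tested, 0 passed, with 1 higher and 2 lower at an unadjusted p under 0.05, and the median was -0.07. Eif1, which guards start codon choice, had 68, 62 and 56 harringtonine reads against 86, 68 and 94 but only 5 to 20 CDS footprints per library.

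Lists tied to the ER and to ATF4 had medians near that of all genes. The 15 tested genes of ER folding and degradation had a median ratio change of -0.03, the 16 of N-glycosylation -0.09 and the 15 listed ATF4 targets -0.02, and 0 passed in each (edgeR; 1, 1 and 1 had an unadjusted p under 0.05). Hspa5, the ER chaperone BiP, held 9673 to 12317 CDS footprints per library and had a ratio change of -0.11 (95% interval -0.63 to 0.41; edgeR adjusted p = 0.954). Herpud1, part of the ER degradation machinery, rose in CDS footprints by 0.72 (edgeR adjusted p = 0.0160) with a harringtonine change of 0.86, and its ratio change was 0.19 (95% interval -0.55 to 0.93). Trib3, a pseudokinase that ATF4 induces, had a ratio change of -0.50 (95% interval -1.41 to 0.41) and rose in CDS footprints by 0.72 (edgeR adjusted p = 0.0296).

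The 6 tested immediate early genes, which cells switch on within minutes of a stimulus, had the lowest median ratio change of the lists, -0.39. Of these, 5 were below 0, 2 (Ier5 and Junb) were lower at an unadjusted p under 0.05 and 0 passed (edgeR). The median change was 0.20 for harringtonine reads, with 4 of the 6 above 0, and 0.47 for CDS footprints, with 6 above 0. Ier5 had 53, 21 and 38 harringtonine reads against 22, 30 and 13, and a ratio change of -1.36 ± 0.37 (log2, SE; edgeR adjusted p = 0.324). Junb had 17, 14 and 11 against 13, 12 and 9. Lists of erythroid function had medians of -0.13 (haem synthesis and iron, 15 tested), -0.17 (red-cell membrane, 17) and -0.04 (erythroid transcription factors, 12). Those of the proteasome, oxidative phosphorylation, DNA replication, splicing, mitosis, chaperones, tRNA synthetases, glycolysis and p53 targets had medians between -0.17 and 0.18. In none of these lists did a gene pass in edgeR, with 0 to 5 genes per list at an unadjusted p under 0.05 in either direction.

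**Figure D5:**
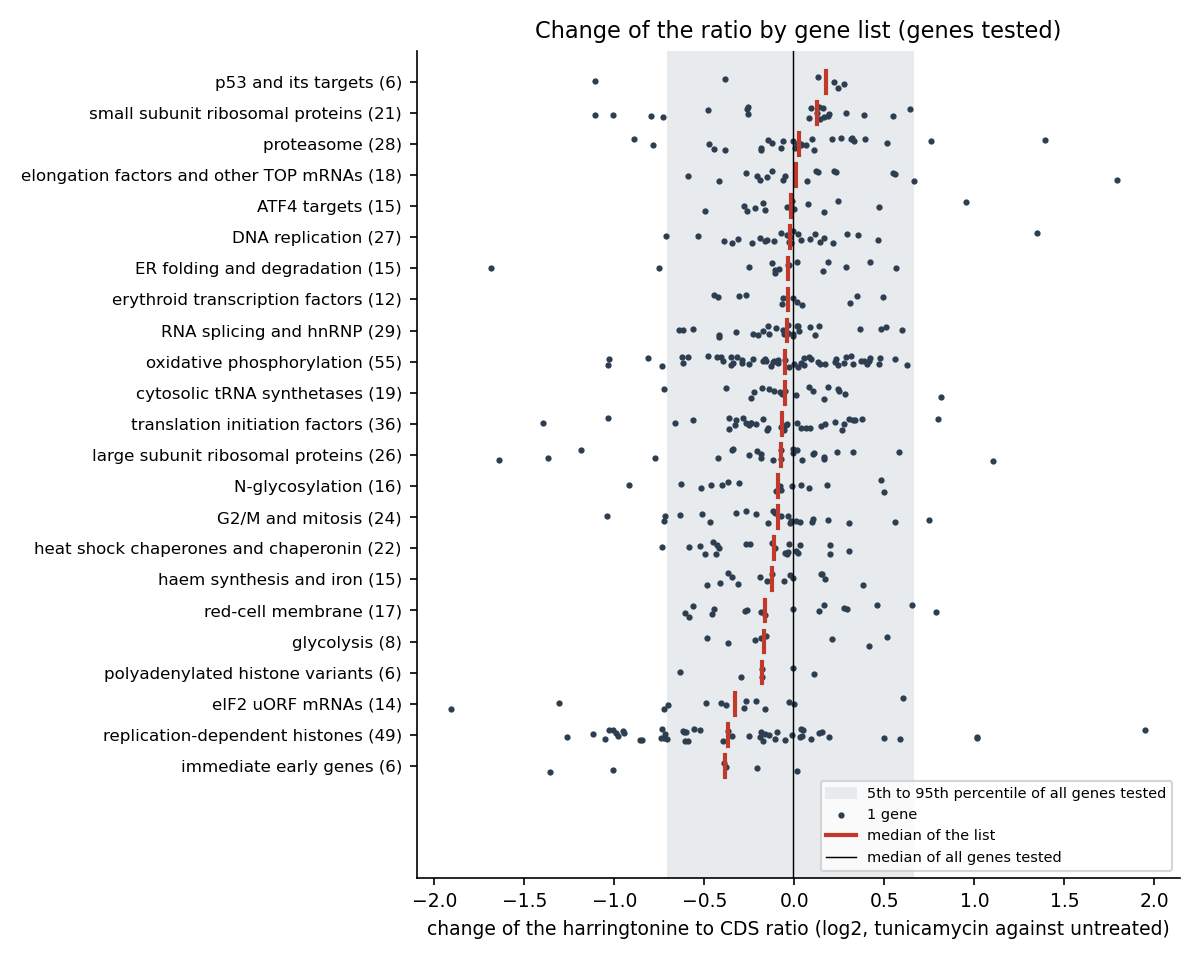
Change of the harringtonine to CDS ratio (log2, horizontal axis) of each tested gene (points) by list, with the number tested in brackets, the list median in red and the 5th to 95th percentile of all 3516 genes (-0.70 to 0.66) shaded. Immediate early genes, histones and uORF mRNAs have the lowest medians (-0.39, -0.37 and -0.33), and the median of all genes is -0.01.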

How the data were processed

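Values were counts as deposited by the authors: reads per listed harringtonine position and library, and footprints per gene and feature, of which CDS rows were used. Per the submitters' processing notes, STAR, HTSeq and edgeR were used, with builds mm10 and GRCm38; neither versions, nor the strand setting, nor the choice of positions is given in the sources used here. In the deposited tables positions hold at least 20 reads over the 3 libraries of at least 1 treatment. The 6 RNA columns were not used.

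Positions were summed per gene. Genes were kept by filterByExpr (minimum count 10, total 15) within each assay, scaled by TMM within each assay and fitted over 12 libraries in edgeR 4.0.16 (R 4.3.3; quasi-likelihood, assay by treatment interaction). DESeq2 1.42.0 and limma 3.58.1 were alternatives. The fit was also run on simulated counts. These had the same spread in both assays, so they do not check p-values under the unequal spreads found here. CPM of single genes are TMM-scaled over tested genes. CPM summed over a list or a marker set are scaled to all harringtonine reads or all CDS footprints of a library, without TMM.

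Harringtonine columns could be matched to a group but not to a numbered sample, so a replicate block was fitted only in cycloheximide libraries. A block by harringtonine column number was not tested. The deviations of the cycloheximide libraries from their group means correlated by number at 0.514, 0.185 and 0.385. Between unlike numbers they correlated at -0.411 to 0.037. The numbers were therefore taken as pairs in the alternative fit with a block, and the main fits had no block.

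Genes named were the 12 largest changes per direction among those passing with at least 5 CPM, or the 3 smallest p where fewer passed; genes fixed by name; and up to 4 of smallest p per list. Genes and lists were chosen with earlier results of these data known. RefSeq symbols or synonyms matched 4527 of the 4538 genes, and 3749 had a promoter sequence.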

Additional observations from a re-analysis of the deposited data

How the results depend on the processing

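Of 3014 values compared for the 98 named genes, 2942 kept their direction and side of the threshold. A further 29 were no longer past it (11 for Atf4 and 18 for Hist1h4k), 13 were newly past it and 30, over 14 genes that did not pass, changed sign. Most named genes did not pass in the main fit, so keeping their side of the threshold was likely at the outset. Leaving out genes on both strands or sharing a position removed 0 genes, and thresholds of 0.01 and 0.1 reused the main estimates. The number of genes passing in the ratio was 2 and became 14 with DESeq2, 4 at an adjusted p of 0.1 and 0 at 0.01. It was 1 with relative log expression, total count or upper quartile scaling, with TMM over all libraries together, with no filter, with a mean of at least 30 reads, among genes with 1 position, and with all features' footprints as denominator. It was 0 with the highest position only and with leader plus CDS footprints. With the replicate block in the cycloheximide libraries it was 1, and for CDS footprints 885 against 239 without the block; it changed no call of another named gene beside those of Atf4 and Hist1h4k. Without any 1 library the ratio gave 0 to 5 genes, harringtonine reads 0 to 2 and CDS footprints 58 to 431. Harringtonine reads gave 2 with DESeq2 and 0 at 0.01. CDS footprints gave 573 with no filter, 51 at 0.01 and 446 at 0.1. No scaling moved the median of all genes by over 0.1 (log2). The cause of these shifts was not tested.

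Changes of sign came with the highest position only for Aldoa (-0.020), Cct3 (0.080), Ldb1 (-0.12), Pabpc1 (-0.050) and Prpf8 (0.27), with positions kept in both treatments for Ldb1 (-0.12), and for Srsf3 with leader plus CDS (-0.52) or all features (-0.51). Without any 1 library the values -0.48 to 0.22 for Eef2, -0.29 to 0.046 for H2afv, -0.54 to 0.12 for H2afy, -0.068 to 0.43 for Herpud1, -0.31 to 0.023 for Hspa5, -0.82 to 0.31 for Ier3, -0.20 to 0.37 for Pabpc1, -0.60 to 0.17 for Ppp1r15b and -0.76 to 0.036 for Trib3. Depth limits the comparison most in the 964 tested genes with under 20 harringtonine reads per library, whose median standard error was 0.41.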

Other observations

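Some deeply read harringtonine genes could not enter the ratio, because they had no CDS row or no CDS footprint. The globins are the chief proteins of red cells, and Hbb-bs, an adult beta-globin gene, held 42673, 42025 and 45850 harringtonine reads in untreated and 50681, 43507 and 42245 in tunicamycin libraries with no CDS footprint. Hbb-bt, the other adult beta-globin gene, held 2784, 2459 and 4649 against 3745, 3296 and 3961, and Hba-a1, an alpha-globin gene, 1048, 520 and 591 against 619, 854 and 849. In each of these 3 genes the untreated and treated libraries overlapped in reads. Globin copies are near-identical, and 0 of the 11 listed globin genes and Ahsp passed the filter for the ratio. The ribosomal protein gene Rpl34 held 5801 harringtonine reads over the 6 libraries and likewise no CDS footprint. In all, 38 of the compared genes had no CDS footprint and 75 further genes with harringtonine positions had no CDS row.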
